A study of Mus musculus with 2 samples.

Results

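Tumour leukocytes from mice given the peptide minP1 alone were compared with those from mice given an anti-PD-L1 antibody alone. The groups were taken by hashtag, the antibody-borne barcode that marks each mouse, and gave 7 of the 14 mice and 3980 of the 7732 kept cells. All mice were wild type BALB/c and carried a subcutaneous tumour grown from 200000 cells of Colon26, a mouse colon carcinoma line. The minP1 mice (n = 4, 2527 cells) received 0.08 µg of a peptide made from the nucleosome-binding protein HMGN1, given intraperitoneally on day 9. The antibody mice, called PDL1 (n = 3, 1453 cells), received 200 µg of clone 10F.9G2 intraperitoneally on days 4 and 8. Tumours were taken on day 10 in every group, so the last injection lay 1 day back in the minP1 mice and 2 days back in the PDL1 mice, and agent and schedule cannot be told apart. Untreated tumour-bearing mice (Control, n = 3) are given for reference. The combination mice (minP1_PDL1, n = 4) received both agents at the same doses and days. They enter the clustering, the doublet scores, values given for whole clusters, the fit of all 14 mice and the plot of neutrophil shares. The labels name no irrelevant peptide and no isotype antibody.

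HMGN1 outside the cell acts as an alarmin: it is sensed through TLR4 and its adaptor MYD88 and activates dendritic cells. PD-L1, the product of Cd274, binds the receptor PD-1 on T cells and restrains them, and the antibody blocks that contact. Type I interferon acts through transcription factors that bind interferon-stimulated response elements in the promoters of antiviral genes. Genes of cholesterol synthesis are driven by the factor SREBP2, which INSIG1 holds in the endoplasmic reticulum when sterols are plentiful.

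The kept cells gave 26007834 to 51230461 reads per mouse over the whole series. The 4 minP1 mice held 564, 597, 724 and 642 cells and the 3 PDL1 mice 483, 466 and 504, so every minP1 mouse had more cells than any PDL1 mouse (631.8 ± 69.3 against 484.3 ± 19.0, SD, exact permutation p = 0.0571, adjusted 0.333 over 7 measures). Median reads per cell were 38310 against 43824 (exact permutation p = 0.543) and the share of mitochondrial reads 5.64% against 5.41%. None of the 7 measures of cell number, depth and quality passed the test. The labels call the sorted cells intestinal although the tumour lay under the skin. Ptprc, which encodes CD45, was found in 78.3% to 100% of cells in the named leukocyte classes but in 60.3% of a cluster led by the matrix genes Mgp and Sparc and 48.2% of an epithelial or tumour cluster. The labels speak both of 1 pooled library and of separate runs and give no run for any mouse, while every barcode in the files carries the same run name (1 name). Whether mice were handled in different runs is not given.

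Neutrophils, the short-lived phagocytes marked by S100a8 and Cxcr2, made up a smaller share of cells in the minP1 mice than in the PDL1 mice, but the difference did not pass the test. They were 4.08%, 5.70%, 7.87% and 5.92% of cells in minP1_1 to minP1_4 and 7.87%, 12.5% and 10.7% in PDL1_1 to PDL1_3. The means were 5.89% ± 1.56 (SD, n = 4, 152 cells) and 10.3% ± 2.31 (n = 3, 150 cells), a difference of -4.45 points (two-sided exact permutation p = 0.0857, adjusted 0.849 over 26 classes). The groups met at one point only, where minP1_3 lay just above PDL1_1. Exact 95% intervals of a single mouse, which cover counting error only, ran from 2.60% to 6.06% in minP1_1 and from 9.59% to 15.8% in PDL1_2. Control mice held 2.48%, 2.94% and 4.59%. With 35 ways to assign 7 mice the smallest p possible was 0.0286. In the share of immune cells only, and without cells of a high doublet score, the difference reached that value (-4.98 and -4.26 points, exact permutation p = 0.0286 each, adjusted 0.657 and 0.357). This class was singled out from earlier results of the same data, so these values are no independent test.

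**Figure D1:**
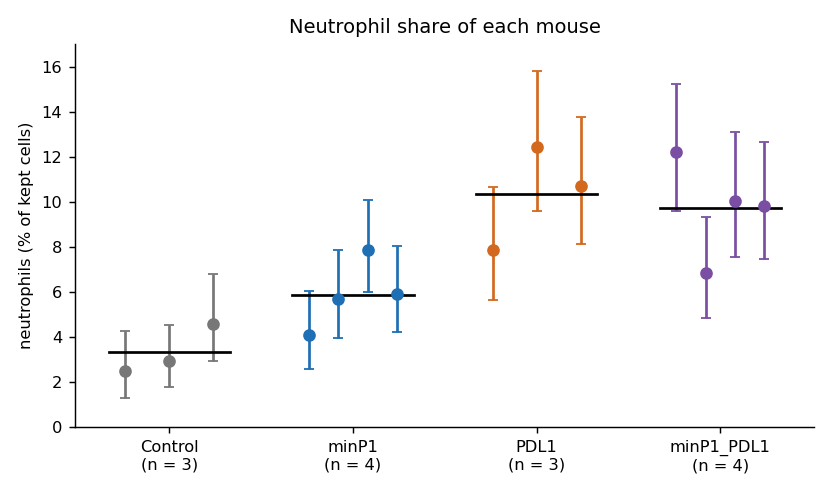
Neutrophils as a percentage of the kept cells of each mouse (vertical axis) in Control, minP1, PDL1 and combination (minP1_PDL1) mice; points are mice, bars exact 95% binomial intervals and black lines group means. The minP1 mice sit between 4.08% and 7.87% and the PDL1 mice between 7.87% and 12.5%.

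No cell class separated the groups fully. Of 26 classes, 0 had an unadjusted exact permutation p below 0.05 and 0 had groups that did not overlap (0.0% in each case). Monocytes and macrophages were 31.3% ± 6.68 of cells in minP1 and 27.5% ± 0.615 in PDL1 mice, and NK cells 19.0% ± 1.94 and 16.4% ± 2.83. The monocyte and macrophage class leaves out an unnamed cluster with Mmp12, Pf4 and Arg1 among its leading genes. That cluster held 2.74% ± 1.17 of minP1 and 2.34% ± 0.255 of PDL1 cells. The mean T cell share was 2.07 points larger in the minP1 mice, within its spread between mice (SD 5.24 points in minP1 and 2.84 in PDL1). Regulatory T cells, which carry Foxp3, were 6.99% and 7.45%, and the CD8 T cell cluster 3.49% and 4.41%. As a log2 ratio, CD8 over regulatory T cells stood at -1.05 ± 0.82 in minP1 and -0.77 ± 0.66 in PDL1 mice (exact permutation p = 0.714), and its difference turned sign when minP1_1 or PDL1_1 was left out. These calls by cluster leave out any CD8 cells of the T cell cluster led by S1pr1 with Tcf7, which carried Cd8a at 314.6 CPM. With cells called by their own marker counts the same ratio was 0.58 ± 0.53 against 0.70 ± 0.38 (difference -0.12, exact permutation p = 0.743). A small unnamed cluster led by interferon-induced genes held 0.525% ± 0.176 of minP1 cells (13 cells) and 1.25% ± 0.753 of PDL1 cells (18 cells, exact permutation p = 0.0857, adjusted 0.849).

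Neutrophil markers were mostly lower in minP1 in sums over all CD45+ cells, while other neutrophil genes were divided. In such sums fewer cells of a type and less RNA per cell cannot be told apart. S100a9, a subunit of calprotectin, was 309.3, 261.0, 397.8 and 287.3 CPM (its reads per mouse, scaled so that all libraries have an equal total) in the minP1 mice and 406.8, 716.2 and 444.0 in the PDL1 mice. All minP1 mice lay below all PDL1 mice (log2 difference -0.73, SE 0.23, edgeR adjusted p = 0.990). Of the 10 neutrophil markers 9 were lower in minP1, with summed levels of 906.0 to 1418 CPM against 1347 to 2179. Their median log2 difference was -0.58, beside 0.01 over all genes. S100a9 was the single marker of the 10 without overlap, where 2.34% of all genes were lower without overlap. The granulocyte receptors Csf3r and Cxcr2 were 46.5 against 75.5 and 41.2 against 63.8 CPM, with groups that overlapped. Of 16 measured genes of granules and calprotectin 7 were higher and 9 lower, at 5712 to 7538 against 6968 to 7494 CPM summed (median log2 -0.22). Of 19 genes of recruitment and survival 8 were higher and 11 lower (median log2 -0.08). Macrophage markers stood the other way, 11 of 12 higher in minP1, at 2954 to 4400 against 1936 to 2978 CPM.

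Across all genes no single gene passed. The quasi-likelihood test of edgeR, fitted on read sums of all 14 mice, called 0 genes at an adjusted p below 0.05 (0.0% of those tested) in all CD45+ cells and in each of 5 classes. At an unadjusted p below 0.05 edgeR found 891 of 18410 genes (4.84%) in the sums of all CD45+ cells. Within classes it found 547 (4.42%) for T cells, 677 (5.62%) for NK cells, 746 (5.03%) for monocytes with macrophages, 550 (4.6%) for dendritic cells and 317 (3.21%) for neutrophils. In that order, 920, 619, 602, 741, 598 and 494 would be found if no gene differed. DESeq2 called 19, 11, 46, 13, 8 and 5 genes in the same 6 sums. In simulated sums of all CD45+ cells edgeR recovered 33% of genes changed by a log2 of 1 and 55% of those changed by 2, so single changes of this size could be missed. The values that follow are therefore descriptions of lists and of genes that did not pass, read against the share of all genes that behaved alike.

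Every member of the type I interferon response pointed one way. All 30 members had lower levels in the minP1 than in the PDL1 mice in sums of all CD45+ cells, with a median log2 difference of -0.45. For 15 of the 30 every minP1 mouse lay below every PDL1 mouse, where 2.34% of all 18410 genes did so. An unadjusted edgeR p below 0.05 in that direction was found for 16 members, beside 2.23% of all genes. Summed over the list, the level was 907.5, 1662, 1488 and 1591 CPM in minP1_1 to minP1_4 and 1945, 2095 and 1785 CPM in PDL1_1 to PDL1_3. The groups did not overlap, and minP1_1, the minP1 mouse with the fewest reads, was lowest. Without minP1_1 the median difference was -0.33. Over 17 alternatives it ran from -0.54 to -0.33 with 28 to 30 members lower. It stayed at -0.45 without the cells of the small interferon-led cluster and was -0.43 without neutrophils. Control mice, which enter both further contrasts, lay at 1465, 1329 and 1426 CPM, and the list median was -0.0042 for minP1 minus Control and 0.54 for PDL1 minus Control.

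The promoters of these genes are shown because the list is defined by a shared response. RefSeq promoter windows of GRCm38.p6 (mm10), 250 bases before to 50 after the start, were searched on either strand for 1 motif. It was the letters GAAA followed after any 2 bases by GAAA, the core of an interferon-stimulated response element. The motif was found in 13 of the 22 list members with a window (59.1%) and in 1 of 16 cholesterol genes (6.25%). Of all 27025 genes with a window 3.99% had it. The capitals mark the match, or overlapping matches, in reference sequence read along the gene's strand.
Isg15, chr4:156200867-156200916, minus strand: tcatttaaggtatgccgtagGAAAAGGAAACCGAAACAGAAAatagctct
Ifit3, chr19:34583353-34583402, plus strand: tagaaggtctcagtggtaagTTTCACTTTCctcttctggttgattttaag
Oas1g, chr5:120887614-120887651, minus strand: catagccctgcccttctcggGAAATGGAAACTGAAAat
Rsad2, chr12:26456543-26456592, minus strand: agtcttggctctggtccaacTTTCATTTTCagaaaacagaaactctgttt
A match describes the letters of the window and no binding was measured.

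Antiviral effectors and a ubiquitin-like modifier were among the members whose groups did not overlap. Oasl2, an oligoadenylate synthetase-like protein, was 12.6, 27.97, 25.1 and 29.1 CPM in the minP1 mice and 44.5, 44.3 and 43.6 CPM in the PDL1 mice (log2 -0.90, SE 0.22, edgeR adjusted p = 0.990). Its 3 PDL1 values were nearly equal and stood well above the highest minP1 mouse. Isg15, a ubiquitin-like protein attached to others during infection, was 47.5, 78.5, 84.3 and 91.2 against 127.4, 135.8 and 100.3 CPM (log2 -0.68, SE 0.18). Ifit3, which helps to hold back viral RNA, was 9.55, 26.9, 21.7 and 18.1 against 38.1, 29.4 and 31.8 CPM (log2 -0.80, SE 0.29). Neither gene's groups overlapped. Rtp4, a chaperone induced by interferon, was 69.6 ± 13.5 (SD, n = 4) against 106.3 ± 14.6 CPM (n = 3), and the apoptosis factor Xaf1 60.6 ± 6.68 against 83.2 ± 4.99 CPM, again without overlap.

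**Figure D2:**
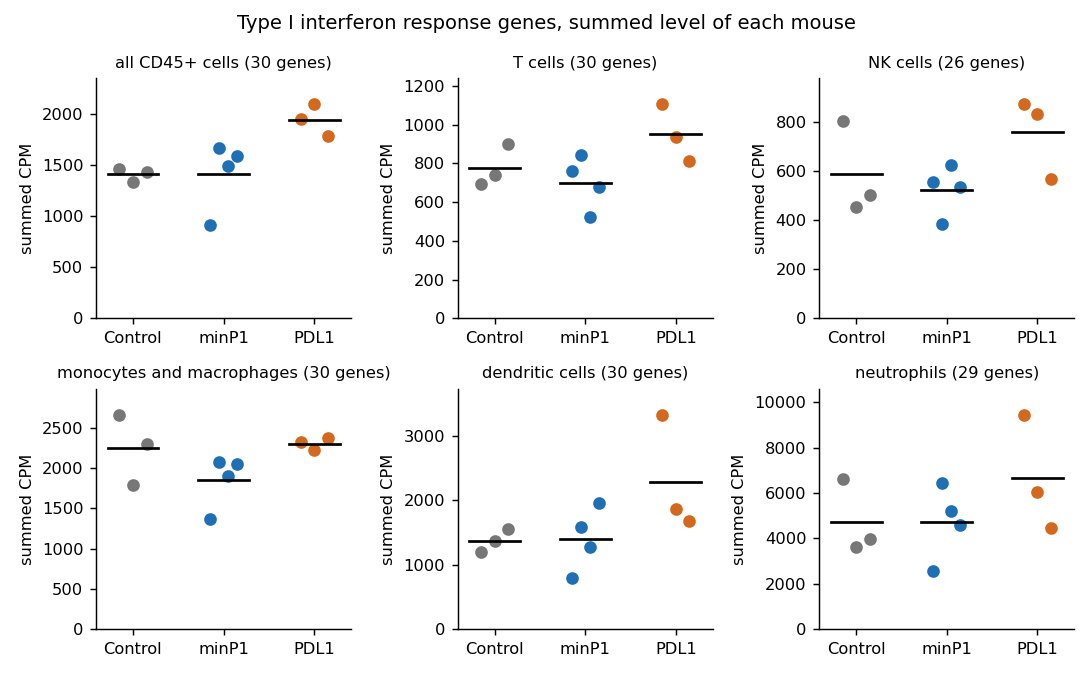
Summed level of the type I interferon response list in CPM (vertical axis) in each Control, minP1 and PDL1 mouse, 1 panel per cell class; points are mice and black lines group means. In all CD45+ cells the minP1 mice reach at most 1662 CPM and the PDL1 mice at least 1785 CPM, and the groups are also apart in monocytes and macrophages. In T cells (minP1 up to 843.8, PDL1 from 811.9 CPM), NK cells (up to 623.7, from 567.9 CPM), dendritic cells and neutrophils the groups overlap.

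Most members were also lower in minP1 within each class. In monocytes and macrophages 27 of 30 members were lower (median log2 -0.36, or -0.21 without minP1_1). The summed levels were 1372, 2081, 1900 and 2051 CPM in minP1 and 2323, 2226 and 2374 CPM in PDL1 mice, without overlap. Control mice lay at 2666, 1788 and 2306 CPM. The list median was -0.23 for minP1 minus Control and 0.06 for PDL1 minus Control, unlike in all CD45+ cells. In the other classes the first median lay between -0.11 and 0.08 and the second between 0.40 and 0.66. In monocytes and macrophages 7 members had minP1 and PDL1 groups that did not overlap, beside 3.24% of all genes. Oasl2 was 34.3 ± 2.49 against 55.7 ± 4.23 CPM, Oas1g, which makes the oligoadenylates that activate RNase L, 26.6 ± 2.62 against 39.9 ± 3.64 CPM, and Rtp4 86.3 ± 11.5 against 122.1 ± 21.5 CPM in these cells. Oas1g and its close relatives could share reads.

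In dendritic cells 27 of 30 members were lower, at a median log2 of -0.86 (-0.46 without PDL1_1), and 3 had groups that did not overlap, beside 2.97% of all genes. These sums rest on 29 to 53 cells per mouse in the 2 groups and join conventional, mature and plasmacytoid dendritic cells. Ifit2 was 6.92, 36.1, 11.2 and 8.39 CPM in minP1 against 131.1, 97.7 and 41.1 CPM in PDL1 mice, and the RNA sensor Ddx58 (RIG-I) 13.8 ± 12.7 against 43.2 ± 9.79 CPM. For both, every minP1 mouse lay below every PDL1 mouse. Rsad2, the antiviral enzyme viperin, was 9.84, 49.9, 56.2 and 26.3 against 267.6, 61.0 and 41.1 CPM, so its groups overlapped and PDL1_1 alone was far up. PDL1_1 also had the highest list sum of the dendritic cells, 3334 CPM beside 1873 and 1676 in the other PDL1 mice. The share of plasmacytoid dendritic cells, a known source of type I interferon, was 2.17% ± 0.487 in minP1 and 1.93% ± 0.142 in PDL1 mice.

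In T cells 22 of 30 members were lower (median log2 -0.65, or -0.34 without PDL1_1) and 3 did not overlap, beside 2.75% of all genes. Zbp1, a sensor of nucleic acid in Z form, was 88.1, 67.8, 53.6 and 66.6 CPM in minP1 and 144.1, 169.6 and 122.9 CPM in PDL1 mice (log2 -1.07, SE 0.22, edgeR adjusted p = 1). Epsti1, induced by interferon as well, was 82.0 ± 7.45 against 181.7 ± 36.8 CPM. All PDL1 mice were above all minP1 mice for both genes. Ifit3b, a near copy of Ifit3 with which it could share reads, was 0.372 ± 0.434 against 5.43 ± 2.16 CPM, and the signalling factor Stat2 34.6 ± 14.2 against 57.3 ± 18.1 CPM with overlap.

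In NK cells 22 of the 26 members measured above the filter were lower (median log2 -0.59, or -0.96 without minP1_4, -0.89 without PDL1_3 and -0.34 without cells of a high doublet score), and 2 did not overlap, beside 2.93% of all genes. Rtp4 was 14.97, 10.02, 25.4 and 20.3 CPM in minP1 and 75.7, 30.6 and 31.9 CPM in PDL1 mice. Mx1, a dynamin-like antiviral GTPase, was 5.97 ± 5.09 against 21.4 ± 12.9 CPM and the related synthetase-like gene Oasl1 10.1 ± 7.77 against 31.3 ± 23.6 CPM, both with overlap. In neutrophils 24 of 29 members were lower (median log2 -0.49, or -0.26 without minP1_1 and -0.13 without PDL1_1) and 2 did not overlap, beside 3.03% of all genes. Oas1a was 42.3 ± 17.9 against 122.7 ± 47.4 CPM without overlap, and Isg15 401.3 ± 104.3 against 724.3 ± 389.0 CPM with overlap. Ifi204, a DNA sensor, was 65.3 ± 43.0 against 153.7 ± 30.1 CPM, but its direction turned under a coarser clustering.

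**Figure D3:**
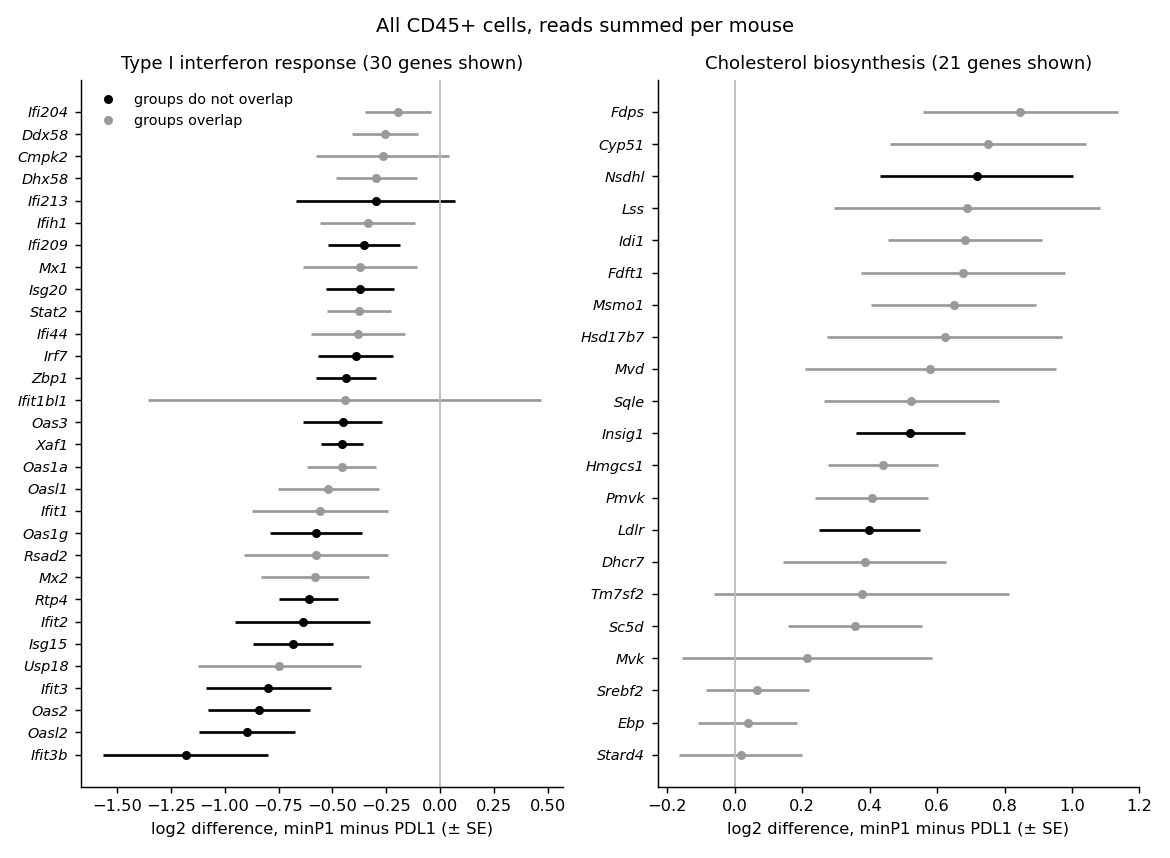
Log2 difference, minP1 minus PDL1, (horizontal axis) of members of the interferon and cholesterol lists in sums of all CD45+ cells; points are genes, bars the standard error, and black marks genes whose groups did not overlap. All 30 interferon members lie below 0, and all cholesterol members drawn lie above 0; a few cholesterol members are not drawn.

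Cholesterol synthesis stood in the opposite direction. All 23 members were higher in the minP1 than in the PDL1 mice in sums of all CD45+ cells, at a median log2 difference of 0.50. For 3 members every minP1 mouse lay above every PDL1 mouse, beside 2.94% of all genes, and 10 had an unadjusted edgeR p below 0.05 in that direction, beside 2.61%. The summed level was 1079, 897.3, 663.3 and 984.8 CPM in the minP1 mice and 655.9, 651.4 and 698.2 CPM in the PDL1 mice. The groups overlapped through minP1_3, which lay at the PDL1 level. Over 17 alternatives the median ran from 0.38 to 0.68, with 19 to 23 members higher. Control mice had 995.9, 875.3 and 951.7 CPM, and the median was -0.09 for minP1 minus Control and -0.56 for PDL1 minus Control, contrasts that share those mice.

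The sterol sensor partner and the early enzymes show the pattern. Insig1 was 84.3, 57.0, 51.4 and 71.8 CPM in the minP1 mice and 46.9, 40.4 and 50.8 CPM in the PDL1 mice (log2 0.52, SE 0.16, edgeR adjusted p = 0.990). Its groups did not overlap, though minP1_3 and PDL1_3 nearly met. Fdps, which makes farnesyl diphosphate, was 158.2, 107.4, 61.2 and 129.8 against 68.6, 48.8 and 73.0 CPM, and Idi1, the isomerase one step earlier, 33.8 ± 8.80 against 21.0 ± 3.36 CPM. In both the minP1_3 value lay within the PDL1 range.

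**Figure D4:**
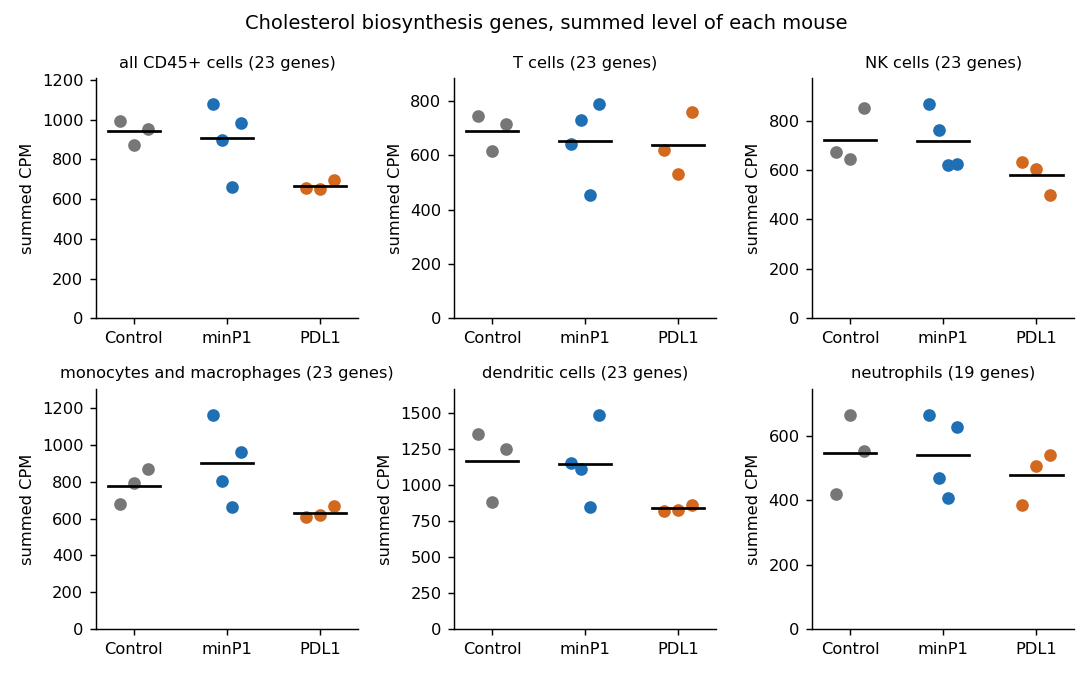
Summed level of the cholesterol biosynthesis list in CPM (vertical axis) in each Control, minP1 and PDL1 mouse, 1 panel per cell class; points are mice and black lines group means. In all CD45+ cells 3 of 4 minP1 mice lie above the PDL1 mice, and minP1_3 at 663.3 CPM lies among them.

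Monocytes, macrophages and dendritic cells had 20 of 23 cholesterol genes higher in minP1. In monocytes and macrophages the median log2 difference was 0.58, and 7 members did not overlap, beside 3.46% of all genes. The summed levels were 1164, 806.5, 665.2 and 964.9 CPM in minP1 and 607.2, 621.9 and 670.3 CPM in PDL1 mice, which overlapped through minP1_3. Control mice had 678.2, 791.8 and 869.9 CPM there, and the median was 0.19 for minP1 minus Control and -0.26 for PDL1 minus Control. Msmo1, a demethylating enzyme of late synthesis, was 78.6, 57.9, 39.7 and 68.5 CPM in minP1 and 31.6, 27.3 and 38.0 CPM in PDL1 mice (log2 0.92, SE 0.21, edgeR adjusted p = 0.961). Fdft1, squalene synthase, was 21.7 ± 8.52 against 8.94 ± 1.81 CPM, and Fdps 109.5 ± 42.8 against 55.2 ± 5.04 CPM. Each of these had all minP1 mice above all PDL1 mice. In dendritic cells the median was 0.51, with 3 members higher without overlap beside 2.92% of all genes. The list sums overlapped, with minP1_3 at 847.0 CPM and the PDL1 mice at 821.7, 829.2 and 860.6 CPM. Mvd, mevalonate diphosphate decarboxylase, was 19.6 ± 12.9 against 2.99 ± 1.09 CPM without overlap, while Stard4, a sterol carrier, and Nsdhl were 32.3 ± 12.9 against 10.6 ± 9.58 and 46.2 ± 37.0 against 18.4 ± 2.02 CPM with overlap.

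In lymphocytes and neutrophils the cholesterol medians lay between 0.18 and 0.20, but at the coarser clustering the neutrophil median was 0.40 and the dendritic one 0.35. In NK cells 17 of 23 members were higher (median log2 0.20, or 0.13 without minP1_1, 0.37 without minP1_3 and 0.40 without PDL1_2), led by Fdps at 95.1, 77.8, 77.8 and 60.2 against 24.4, 14.6 and 39.4 CPM, the single member without overlap beside 3.84% of all genes. Tm7sf2 had reads in 3 of 4 minP1 mice (3.23 ± 3.65 CPM) and 0 in PDL1 mice, values that can rest on a few cells. In T cells 14 of 23 were higher (median log2 0.18). Without overlap 2 members lay higher, beside 3.24% of all genes, and 1 lay lower, beside 2.75%. The 2 higher were Idi1 (30.4 ± 9.21 against 17.5 ± 2.05 CPM) and Dhcr7, the last reductase of the pathway (7.07 ± 1.64 against 2.47 ± 1.44 CPM). The T cell median ran from -0.17 without PDL1_2 to 0.44 without PDL1_3, and was 0.07, 0.32 and 0.04 without minP1_2, minP1_3 and minP1_4. In neutrophils 12 of 19 measured members were higher (median log2 0.20, from -0.01 without minP1_4 to 0.33 without minP1_3), 0 of them without overlap, beside 1.91% of all genes. The letters TCACNCCAC of a sterol regulatory element, searched on both strands, were found in 1 of the 16 cholesterol genes with a window (6.25%), Hmgcs1. Of all genes with a window 1.44% had them.

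Antigen presentation lay slightly lower in the minP1 mice. Of 17 MHC class I genes 16 were lower in all CD45+ cells, at a median log2 of only -0.15, and 3 did not overlap, beside the 2.34% of all genes given above. Tapbp, tapasin of the peptide-loading complex, was 239.8 ± 19.0 against 291.3 ± 25.6 CPM, and the class I gene H2-T22 92.4 ± 7.32 against 121.0 ± 12.3 CPM, both without overlap. H2-Q6 was 4.00 ± 0.716 against 6.70 ± 2.23 CPM. H2-T22, H2-Q4 and H2-Q6 have near-identical relatives, so their levels are uncertain. In monocytes and macrophages 16 of 17 were lower (median log2 -0.21), 6 of them without overlap, beside 3.24% of all genes. There H2-T22 was 86.1 ± 8.12 against 113.2 ± 4.78, H2-Q4 271.6 ± 15.1 against 313.5 ± 15.9 and Tapbp 242.1 ± 21.5 against 310.7 ± 53.3 CPM, the last with overlap.

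In dendritic cells, which present to CD4 T cells, the class II values were mostly one-sided. There 12 of 13 measured members were lower in minP1 (median log2 -0.26, or -0.16 without minP1_1) and 4 did not overlap, beside 2.97% of all genes. H2-DMb1, which loads peptides, was 598.3, 638.7, 722.1 and 607.1 CPM in minP1 and 989.0, 782.5 and 1055 CPM in PDL1 mice (log2 -0.55, SE 0.14, edgeR adjusted p = 0.999). H2-Eb1 was 2944 ± 399 against 3900 ± 432 and H2-Ab1 4905 ± 494 against 5878 ± 26.9 CPM. All minP1 mice lay below all PDL1 mice for these 3 genes. Conventional dendritic cells were 3.29% of minP1 and 4.35% of PDL1 cells, and within the dendritic class 8 of 10 markers of their type 2 subset were lower, at 1795 to 2411 against 2494 to 3114 CPM summed. The part of that subset in the class II values was not tested. In all CD45+ cells 10 of 13 class II genes were lower (median log2 -0.29), with 0 free of overlap beside 2.34% of all genes. That median was -0.04 without PDL1_2, -0.17 without minP1_1 and -0.45 without PDL1_1. Ciita, the master regulator, was 18.1 ± 3.33 against 24.3 ± 6.93 CPM, H2-DMb2 11.8 ± 1.81 against 14.8 ± 2.86, and the protease Lgmn 469.9 ± 98.3 against 379.3 ± 75.0 CPM.

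In neutrophils 11 of 12 class II genes were lower in minP1 (median log2 -1.36). H2-Aa was 332.1 ± 293.9 against 1146 ± 326 CPM, Lgmn 86.1 ± 49.7 against 239.9 ± 55.3 and H2-Ab1 689.5 ± 481.5 against 1917 ± 975 CPM. In the same sums 9 of 12 macrophage markers were lower, at 302.2 to 2923 against 1609 to 1859 CPM, and 34.5% of neutrophils had a high doublet score. Without such cells the class II median was 0.22, the opposite direction. The interferon gamma list, which covers guanylate-binding proteins among others, had 18 of 24 members lower in all CD45+ cells (median log2 -0.18, or -0.10 without minP1_1 and -0.11 without PDL1_2). Gbp2 was 156.0 ± 26.0 against 198.9 ± 25.7, Gbp7 165.6 ± 29.99 against 200.0 ± 13.2 and Gbp6 86.6 ± 12.4 against 103.6 ± 0.907 CPM, and Gbp6 was the single member without overlap, a share near the 2.34% of all genes.

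**Figure D5:**
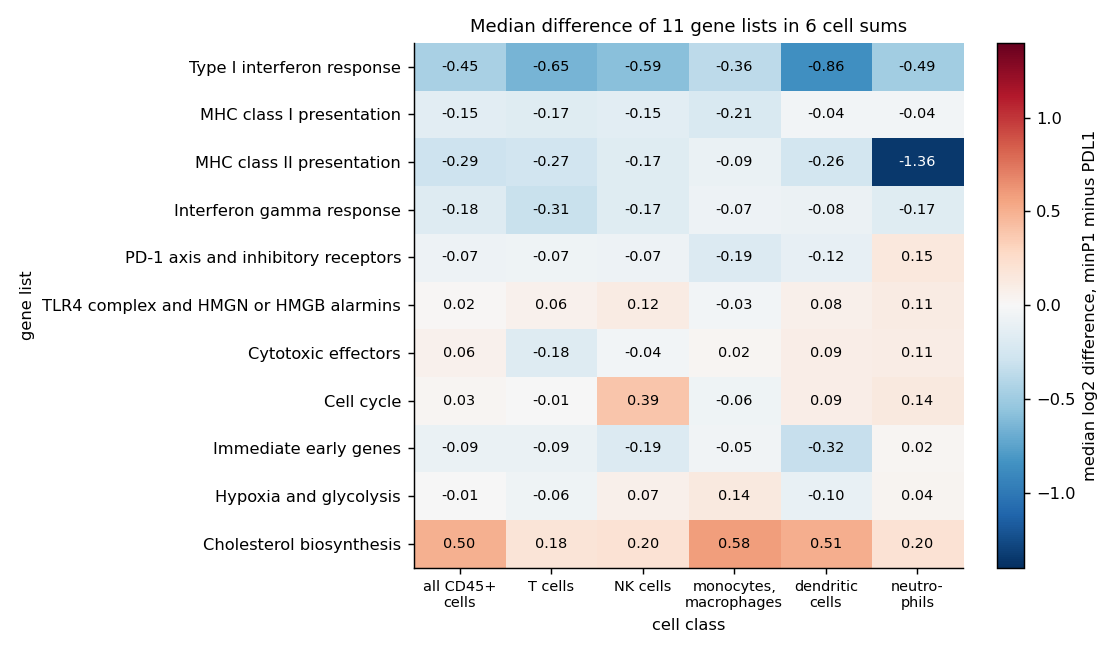
Median log2 difference, minP1 minus PDL1, over the measured members of 11 gene lists (rows) in 6 cell sums (columns); colour and number give the median. The interferon row is negative in all 6 columns, from -0.36 to -0.86, and the cholesterol row positive in all 6, from 0.18 to 0.58.

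The genes of the antibody target had similar levels in both groups. In all CD45+ cells Cd274, which encodes PD-L1, was 127.2, 165.0, 209.3 and 165.3 CPM in minP1 and 132.8, 247.7 and 200.2 CPM in PDL1 mice (log2 -0.22, SE 0.25). Pdcd1, which encodes PD-1, was 34.3 ± 4.56 against 34.95 ± 2.24 CPM. The groups of both overlapped widely. Of 14 genes of the PD-1 axis and inhibitory receptors 10 were lower (median log2 -0.07). That median was -0.25 without PDL1_1, -0.05 without minP1_2, and 0.01 and 0.03 without PDL1_2 and PDL1_3. Btla was 10.7 ± 2.66 against 16.6 ± 3.52 CPM, Tigit 10.99 ± 1.71 against 16.3 ± 4.30 CPM, and Vsir, which encodes VISTA, 107.6 ± 17.98 against 96.5 ± 9.97 CPM, all with overlap.

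On the side of the peptide, Tlr4 was 47.5 ± 6.92 CPM in minP1 and 41.0 ± 7.14 CPM in PDL1 mice, and its co-receptor Cd14 817.6 ± 88.7 against 683.6 ± 141.4 CPM. The adaptors Myd88 and Ticam1 were 65.0 ± 10.5 against 71.6 ± 8.18 and 6.26 ± 1.78 against 8.00 ± 2.17 CPM. Hmgn1 itself, the parent gene of the peptide, was 129.9 ± 31.1 against 128.3 ± 41.9 CPM. Of 17 members of the TLR4 and alarmin list 10 were higher (median log2 0.02, between -0.03 and 0.04 with any 1 mouse left out). Among products of activated myeloid cells, Il1b was 1446 ± 336 against 1674 ± 584, Cxcl9 381.9 ± 146.8 against 271.5 ± 44.5 and Cxcl10 245.9 ± 87.6 against 227.2 ± 39.4 CPM, all with overlap.

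Cytotoxic genes were split. In all CD45+ cells 14 of 17 were higher in minP1 (median log2 0.06, from -0.12 without PDL1_1 to 0.21 without PDL1_2), and the 3 without overlap, beside 2.94% of all genes, were neighbouring granzymes. Gzmg was 5.88, 55.9, 30.4 and 14.99 CPM in minP1 and 1.31, 0.697 and 0.771 CPM in PDL1 mice (log2 4.83, SE 1.27, edgeR adjusted p = 0.990). Gzmd was 91.2 ± 33.7 against 39.4 ± 1.79 CPM and Gzme 43.7 ± 10.0 against 18.1 ± 6.31 CPM. Every minP1 mouse lay above every PDL1 mouse, but these granzymes are close copies of each other and could share reads. Within NK cells, Gzmg was 51.2, 641.8, 253.9 and 138.1 against 20.9, 0 and 6.94 CPM, and Gzmd 741.8 ± 485.3 against 295.3 ± 129.3 CPM with overlap. The whole list was even in NK cells, 8 of 17 higher at a median log2 of -0.04 (from -0.08 without minP1_2 to 0.01 without minP1_1). Ifng, the main cytokine of NK cells, was 117.4, 127.6, 134.4 and 78.0 CPM in minP1 and 188.0, 158.9 and 180.2 CPM in PDL1 mice, without overlap (log2 -0.62, SE 0.21, edgeR adjusted p = 0.814). Over all CD45+ cells Ifng was 85.2 ± 21.8 against 83.7 ± 34.3 CPM.

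In NK cells most cell cycle genes were higher and most immediate early genes lower in the minP1 mice. Of 29 measured cell cycle genes 24 were higher in minP1 (median log2 0.39), and 0 of them were free of overlap, beside 3.84% of all genes. Over 16 alternatives 16 to 28 members were higher. The count was 16 with no cell filter (median 0.23), 17 without cells of a high doublet score (median 0.26) and 16 without PDL1_2 (median 0.15), and the median was 0.16 without minP1_2 and 0.80 without PDL1_3. The NK class leaves out an unnamed cluster led by the mitosis genes Ncapg, Bub1 and Nusap1, which carried Mki67 at 631.5 CPM and the NK receptor gene Ncr1 at 716.2 CPM. That cluster held 1.44% ± 0.749 of minP1 cells (35 cells) and 1.58% ± 0.481 of PDL1 cells (23 cells, exact permutation p = 0.800), and its part in the cell cycle values was not tested. Mcm6 and Mcm4, parts of the replicative helicase, were 153.9 ± 37.5 against 88.2 ± 27.8 and 84.5 ± 26.8 against 53.2 ± 10.3 CPM, and Pcna, the sliding clamp, 408.4 ± 88.9 against 310.6 ± 63.2 CPM. Immediate early genes, switched on within minutes of a stimulus, were lower for 20 of 23 members (median log2 -0.19), with 4 free of overlap, beside 2.93% of all genes. Nr4a1 was 668.0 ± 136.6 against 948.7 ± 167.4, Egr2 18.8 ± 5.70 against 35.7 ± 13.8 and Fosl2 372.1 ± 59.6 against 478.0 ± 117.4 CPM, of which Egr2 did not overlap. In dendritic cells 19 of 23 immediate early genes were lower (median log2 -0.32, or -0.21, -0.16 and -0.14 without minP1_1, minP1_2 and PDL1_3), 3 of them without overlap, beside 2.97% of all genes. Btg2 was 182.9, 177.8, 276.0 and 165.2 against 291.4, 454.5 and 329.8 CPM, Ier2 208.3 ± 43.5 against 284.5 ± 25.4 without overlap and Egr1 150.3 ± 47.1 against 283.9 ± 127.0 CPM with overlap.

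Monocytes and macrophages held slightly more transcript of the hypoxia and glycolysis list in minP1. All 22 members were higher, at a median log2 of 0.14, and the summed levels were 10108, 11807, 10053 and 10953 CPM against 9757, 9529 and 9498 CPM, without overlap. Over 16 alternatives 13 to 22 members were higher, and the median was 0.05 without cells of a high doublet score. Pgam1 and Pgk1, glycolytic enzymes, were 848.8 ± 66.5 against 661.8 ± 75.9 and 1060 ± 73.7 against 899.8 ± 43.5 CPM, and Pdk1, which holds back pyruvate oxidation, 27.5 ± 3.25 against 18.6 ± 3.94 CPM. None of the 3 overlapped, and 4 members in all were free of overlap, beside 3.46% of all genes.

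The single genes of smallest p, none of which passed the test of edgeR, belong mostly to no list. A nonzero entry, 1 gene in 1 cell, held 26.8 reads on average. Values of a few CPM, and a 0 beside them, can therefore rest on a few cells. In all CD45+ cells S1pr1, the receptor that lets lymphocytes leave tissue, was 40.9, 24.3, 25.1 and 28.2 CPM in minP1 and 16.5, 14.7 and 16.5 CPM in PDL1 mice (log2 0.89, SE 0.18). The T cell cluster led by S1pr1 held 10.2% ± 5.42 of minP1 cells, 18.3% in minP1_1, and 7.3% ± 3.09 of PDL1 cells, with overlap. The part of that cluster in the S1pr1 values was not tested. Zfp566 was 2.66 ± 0.308 against 0.524 ± 0.318, Frat2 10.7 ± 0.993 against 6.34 ± 0.432 and Pcyt2, an enzyme of phosphatidylethanolamine synthesis, 17.6 ± 1.05 against 10.1 ± 2.00 CPM. Igha, the constant region of immunoglobulin A, was 3.96, 12.3, 0.867 and 1.44 against 0.100, 0.0387 and 0 CPM. Lower in minP1 were Spon1, an extracellular matrix protein, at 13.1 ± 3.63 against 27.95 ± 3.75 CPM, Gm40443 at 0.0588 ± 0.0419 against 1.78 ± 1.38 CPM and I830127L07Rik at 5.81 ± 2.70 against 17.2 ± 1.02 CPM. Groups did not overlap for any of these genes, and edgeR gave each an adjusted p of 0.990. DESeq2 called all 8 of them, and also Rtp4, Xaf1 and Gzmg, given above.

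The smallest adjusted p of any class belonged to I830127L07Rik in monocytes and macrophages. It was 7.94, 7.90, 8.16 and 14.8 CPM in minP1 and 37.8, 39.3 and 39.1 CPM in PDL1 mice (log2 -1.99, SE 0.33, edgeR adjusted p = 0.342). Spon1 was 20.6 ± 8.94 against 53.9 ± 12.8 and Catsper2 0.0772 ± 0.0716 against 2.96 ± 2.31 CPM in these cells. Higher in minP1 were the hedgehog receptor Ptch1 (13.3 ± 3.27 against 4.23 ± 1.22 CPM), Pank3 of coenzyme A synthesis (28.9 ± 3.08 against 15.9 ± 2.86 CPM) and the cytokine Il2 (2.24 ± 0.583 against 0.0231 ± 0.0401 CPM). DESeq2 called these 6 genes and Msmo1 in the same sums. Over all mice, 61.4% of macrophages and 24.3% of monocytes had a high doublet score, and macrophages carried the T cell gene Cd3e at 73.7 CPM. All 11 T cell markers were lower in minP1 in these sums. At 2.24 CPM the Il2 reads can come from a few cells, and the part of T cells in them was not tested.

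In NK cells Arg1, the arginine-degrading enzyme best known from macrophages, was 60.1, 224.3, 213.9 and 234.9 CPM in minP1 and 45.7, 63.1 and 45.0 CPM in PDL1 mice (log2 1.84, SE 0.40, edgeR adjusted p = 0.674). Only minP1_1 lay within the PDL1 range, and without it Arg1 passed the test (log2 2.13, edgeR adjusted p = 0.0392). Macrophage markers in the same NK sums were higher for 7 of 12, at 122.1 to 632.7 against 141.4 to 300.2 CPM, and their part in the Arg1 values was not tested. Without PDL1_2 another gene, the MYC antagonist Mxi1, passed in NK cells (log2 5.22, edgeR adjusted p = 0.00834). Further genes of NK cells were 9430038I01Rik (40.5 ± 24.5 against 7.90 ± 4.37 CPM), Tnfaip8l1 (7.33 ± 3.15 CPM against 0 in every PDL1 mouse), Tmem243 (65.2 ± 6.41 against 135.3 ± 31.3 CPM), Gm5547 (0.0677 ± 0.135 against 9.73 ± 2.30 CPM) and Amica1 (47.5 ± 9.68 against 119.0 ± 36.0 CPM), an older symbol of the adhesion protein JAML. With all mice kept, DESeq2 called these 5 genes, Arg1 and Mxi1. The Tnfaip8l1 and Gm5547 reads can come from a few cells.

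T cells had Hbegf, a growth factor, at 12.2 ± 6.31 against 1.05 ± 0.435 CPM, Tmem88 at 12.0 ± 14.6 against 0.369 ± 0.422 CPM and Slc9b2 at 10.3 ± 4.79 CPM against 0 in every PDL1 mouse. Tmem160 was 40.9 ± 8.03 against 100.3 ± 25.6 CPM. DESeq2 called these 4 genes, Zbp1 and Epsti1 in T cells, where edgeR called none. The Hbegf, Tmem88 and Slc9b2 reads can come from a few cells. In dendritic cells St8sia4, which adds polysialic acid, was 235.7, 173.2, 160.2 and 178.3 against 97.3, 106.7 and 101.5 CPM, and the small GTPase Gem 41.5, 54.2, 62.0 and 27.4 against 168.2, 152.5 and 99.9 CPM. Neither overlapped. Tab3 was 23.2 ± 13.4 against 0.783 ± 0.707, Gm6637 25.1 ± 6.88 against 3.62 ± 2.62 and Ms4a6b 172.5 ± 65.7 against 343.0 ± 42.6 CPM in dendritic cells. Of these 5 genes DESeq2 called all but Ms4a6b.

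In neutrophils the chemokine Ccl5 was 946.0, 1372, 756.8 and 769.9 CPM in minP1 and 270.2, 609.9 and 421.7 CPM in PDL1 mice. The growth factor receptor Igf1r was 104.0 ± 27.8 against 28.7 ± 10.7 CPM and Rbsn 18.2 ± 10.7 CPM against 0 in every PDL1 mouse. Lower were Trim30d (1.37 ± 1.30 against 55.9 ± 8.41 CPM), Ms4a4a (0.560 ± 0.650 against 45.3 ± 7.13 CPM) and the interferon-induced Ifi27l2a (539.1 ± 145.7 against 1186 ± 141 CPM). DESeq2 called Trim30d and Ms4a4a, with Mov10, Mrps10 and Slc39a10, while edgeR gave the named neutrophil genes an adjusted p of 1. The neutrophil sums rest on 23 to 58 cells and 794264 to 2147048 reads per mouse, so the Rbsn reads can come from a few cells. In these sums 5 of 6 CD8 T cell markers, Ccl5 among them, were higher in minP1, at 1583 to 2303 against 726.0 to 1207 CPM. Of these, 3 were without overlap, beside 1.91% of all genes. NK cell markers were higher for 8 of 9 and gamma delta T cell markers for 3 of 3. The part of such cells in the Ccl5 and Igf1r values was not tested.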

How the data were processed

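Single-cell RNA of tumour CD45+ cells was measured on the BD Rhapsody whole-transcriptome system. Per the labels, adapter removal by cutadapt 2.10 and alignment to mm10 by Bowtie2 2.3.4.1 came before counting, and hashtag reads gave each barcode its mouse. The values the authors deposited are raw counts, for 22836 genes and 8262 barcodes. Nonzero entries had a median of 10 and a mean of 26.8, too high for counts of molecules, so reads of 1 molecule are not independent and the mouse was the unit. Of the barcodes, 147 columns named as doublets or undetected were not used, 383 of 8115 with over 25% mitochondrial reads were removed, and 7732 were kept, beside 7613 stated by the labels.

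Cells were clustered with scanpy 1.11.5 (2000 variable genes, 30 components, 20 neighbours, Leiden resolution 1.0), and clusters were named from 3 or more markers. Doublet scores (over 0.5 in 25.9% of kept cells and 72.4% of simulated doublets) were used only in an alternative. Counts were summed per mouse and class (at least 10 cells) and tested with edgeR 4.0.16 (TMM, filterByExpr, quasi-likelihood, all 14 mice, 10 residual degrees of freedom, Benjamini-Hochberg adjustment), which was tested on simulated data. CPM are reads scaled to a common library total after TMM. Shares were tested by exact two-sided permutation over mice. Motifs were searched in RefSeq promoter windows of 300 bases. Alternatives were DESeq2 1.42.0, other scaling and filters, cell subsets, clustering at 0.5, a replicate block and each mouse left out. Those without the interferon-led cluster and without neutrophils were added after seeing the data.

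The members, gene lists and tests were chosen with earlier results of these data known, and the interferon and cholesterol pattern of PDL1 against Control was among them, so it is no independent support. The neutrophil share was made a result of its own because those results named it as the class that differed over the 4 groups. Named genes are, with fewer than 3 called, the 5 of smallest p in each direction in all CD45+ cells and the 3 in a class, the 3 members of smallest p of each list described (a few are not reported here), and the genes of the axis of both agents. Of 24 gene lists, the 11 described with named members were chosen after their values were seen, as were Mxi1, Mov10, Mrps10 and Slc39a10, and the 4 promoters printed. The labels name the mice as biological replicates.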

Additional observations from a re-analysis of the deposited data

Results flagged for a closer look

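Single values that stood apart from the other minP1 mice were looked for in 159 groups of 4, by a gap to the nearest value over 0.829 of the group's range, and 11 were found. Chance gives about 1 in 20 groups; PDL1, with 3 mice, was not examined. The total reads of minP1_1 (33166366) and the share of conventional dendritic cells in minP1_3 (4.696%) stood apart. So did S100a8 in all CD45+ cells of minP1_3 (288.7 CPM), within the PDL1 range of 215.3 to 402.9. In NK cells the values were Mx1 in minP1_3 (13.53 CPM), Arg1 and 9430038I01Rik in minP1_1 (60.14 and 76.95 CPM) and Gm5547 in minP1_2 (0.2709 CPM, the other minP1 mice at 0). In dendritic cells they were Ifit2 in minP1_2 (36.14 CPM) and Btg2 in minP1_3 (276.0 CPM). Tmem88 stood apart in T cells of minP1_2 (33.64 CPM) and I830127L07Rik in monocytes and macrophages of minP1_4 (14.84 CPM), which still lay below every PDL1 mouse.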

How the results depend on the processing

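With 4 and 3 mice, edgeR called 0 genes in every sum under each alternative other than DESeq2 (19, 11, 46, 13, 8 and 5 genes) and, in NK cells, leaving out 1 mouse (0 to 1 gene). Same-numbered mice did not pair (correlations 0.13, 0.004 and 0.018 of their deviations in all CD45+ cells). The fit with the replicate block called 0 genes in all 6 sums. Differences within same-numbered mice, which leave out minP1_4, gave a mean neutrophil share difference of -4.461 points. The exact sign-flip p of 0.25 was the smallest that test can give, so it could not pass. The neutrophil share passed an unadjusted 0.05 without high doublet scores (-4.255 points), among immune cells (-4.975 points) and with edgeR on cells per class (log2 -0.8021, adjusted p = 0.440), and ran from -5.689 to -3.4 points with 1 mouse left out. The CD8 to regulatory T cell difference ran from -0.6262 to 0.05953.

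Of 125 genes and classes, 11 turned sign under an alternative, and the causes were not tested. With 1 mouse left out the log2 difference ran from -0.4242 to 0.0009 for Cd274, -0.1045 to 0.0317 for Pdcd1, -0.1608 to 0.31 for Hmgn1, -0.2125 to 0.3912 for Ifng, -0.0457 to 0.3087 for Cxcl10 and -0.4446 to 0.0604 for Il1b. Without high doublet scores it was 0.0901 for Myd88, 0.0771 for Pdcd1, -0.0936 for Hmgn1 and, in neutrophils, 0.2427 for Lgmn, 0.2395 for H2-Aa and 1.0046 for H2-Ab1. Without neutrophils it was -0.0096 for Hmgn1, -0.0262 for Ifng and 0.0451 for Il1b. Without non-immune clusters it was -0.0655 for Ifng and -0.0267 for Cxcl10. The replicate block gave 0.0303 for Pdcd1, and the coarser clustering 0.1821 for Ifi204 and 0.261 for Lgmn in neutrophils.

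List medians with 1 mouse left out ran from -0.4536 to -0.041 (MHC class II), -0.2537 to 0.0342 (PD-1 axis), -0.0337 to 0.0366 (TLR4) and -0.1208 to 0.2138 (cytotoxic) in all CD45+ cells. They ran from -0.1739 to 0.4378 for cholesterol in T cells, -0.0135 to 0.3313 in neutrophils and -0.0814 to 0.0065 for cytotoxic genes in NK cells. The TLR4 median was -0.0193 with the replicate block, -0.0825 without high doublet scores, -0.0099 without non-immune clusters and -0.0236 without neutrophils. The MHC class II median of neutrophils was 0.2186 without high doublet scores.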
